A study of Mus musculus with 2 samples.

Results

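The Sox, Gata and Tbx genes encode 3 families of transcription factors, and the accessible chromatin at 33 of them was examined in mouse embryonic stem cells (mESCs). The 33 genes are all protein-coding genes of the mm10 annotation named Sox, Gata or Tbx followed by a number, apart from Sox2, Sox17, Gata4, Gata6 and Tbx3, which the selection left out. They comprise 17 Sox, 4 Gata and 12 Tbx genes among 21938 protein-coding genes on chromosomes 1 to 19, X and Y. ATAC-seq, which reads out accessible DNA by the cuts of the transposase Tn5, was performed on EHMT2-dTAG-mcherry mESCs of a BL6/129 hybrid strain. In these cells, the endogenous gene of the histone methyltransferase EHMT2 carries the sequence of a degron tag and an mCherry reporter. DMSO, the vehicle, was the only treatment and lasted 24 h, so that no degrader was present and no second condition can be set beside these cells. Cells came from 2 independent clones, 50000 each, and the deposited peaks were called by the authors on both clones merged. There is therefore no spread between replicates anywhere below, no test was possible, and whether a peak came from both clones cannot be told apart. Each peak has a fold enrichment, which divides the fragment pileup at its summit plus 1 by the local background plus 1, and a q-value, given as −log10. The number of fragments over each summit was calculated from these values and is given with its exact Poisson 95% interval, which covers counting error only. The list holds 116777 peaks on the chromosomes used, with a median of 9 fragments over the summit.

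Sox proteins bind DNA through an HMG box and bend it, GATA proteins through zinc fingers that read the letters GATA, and Tbx proteins through the T-box domain first known from Brachyury (gene T). Each family is known for directing cell fate after pluripotency, from neural tissue, neural crest and cartilage (Sox) to blood, heart and gut (Gata) and mesoderm, heart and limbs (Tbx). Promoters rich in CG dinucleotides are commonly accessible in mESCs even where the gene is silent, and a peak at a gene start is not expression.

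The sequences at selected starts show the range of base composition among these genes. The first set shows the summits, with 50 bp on either side, of the 3 start peaks of highest fold enrichment, on the strand of the gene, with CG dinucleotides in capitals. They lie at chr9:24774516-24774616 on the minus strand for Tbx20, chr17:25570829-25570929 on the minus strand for Sox8, and chr11:45980066-45980166 on the plus strand for Sox30, all in mm10.
Tbx20: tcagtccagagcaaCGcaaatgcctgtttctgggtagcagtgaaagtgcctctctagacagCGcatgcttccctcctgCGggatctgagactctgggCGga
Sox8: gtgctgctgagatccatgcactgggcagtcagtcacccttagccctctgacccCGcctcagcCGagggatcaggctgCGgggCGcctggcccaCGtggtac
Sox30: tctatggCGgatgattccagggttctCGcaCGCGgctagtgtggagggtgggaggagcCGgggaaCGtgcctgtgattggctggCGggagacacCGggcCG
These summits hold 4, 5 and 9 CG dinucleotides. The Sox8 window lies inside an exon of the antisense gene 2810468N07Rik, and the Tbx20 and Sox30 windows overlap no annotated exon.

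The next set, chosen after the values were seen, shows the 100 bases before 3 starts that have no peak, again on the strand of the gene and with CG in capitals. Gata2 and Sox7 are the only genes without a start peak that have CG-rich starts, and Tbx22 has the lowest CG content of all 33. The stretches lie at chr6:88193791-88193890 for Gata2, chr14:63943573-63943672 for Sox7 and chrX:107667864-107667963 for Tbx22, all on the plus strand in mm10.
Gata2: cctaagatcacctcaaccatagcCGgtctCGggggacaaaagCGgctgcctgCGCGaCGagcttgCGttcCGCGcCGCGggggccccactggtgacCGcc
Sox7: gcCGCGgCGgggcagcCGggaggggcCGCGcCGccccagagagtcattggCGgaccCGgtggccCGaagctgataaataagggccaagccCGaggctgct
Tbx22: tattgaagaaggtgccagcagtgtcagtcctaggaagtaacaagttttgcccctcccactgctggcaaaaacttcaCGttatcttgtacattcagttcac
The Gata2 and Sox7 stretches hold 12 and 11 CG dinucleotides and the Tbx22 stretch holds 1. In the whole 1001 bp start window, Gata2 held 88, Sox7 82 and Tbx22 5, beside 58 for Tbx20, 75 for Sox8 and 112 for Sox30.

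A start was counted as having a peak when a deposited peak reached into the window from 500 bp before to 500 bp after the 5′ end of the gene. Of the 33 genes, 22 had such a peak, or 66.7% (exact binomial 95% interval 48.2 to 82.0), beside 64.3% of all protein-coding genes. Without regard to CG content, the share of the 33 genes was thus close to the background. It was 51.5% beside 57.4% when the summit of the peak had to lie inside the window. The 33 start windows held a median of 58 CG dinucleotides, beside 41 in all genes. Within each CG class described below, their share was lower than that of all genes. In each of the 22, the peak spanned the start base itself. By family, 14 of 17 Sox genes, 2 of 4 Gata genes and 6 of 12 Tbx genes had a start peak. The Fox genes, which encode forkhead factors, and the Hox genes, which pattern the body axis, were set beside them as other families of developmental transcription factors. A start peak was found in 37 of 44 Fox genes (84.1%) and 23 of 39 Hox genes (59.0%). The families differ in CG content, with a median in the start window of 76 CG dinucleotides for Sox, 52 for Gata and 38 for Tbx genes. It was 74 for Fox and 52 for Hox genes. Just outside the window lay the nearest peaks of Sox6 and Tbx15, whose edges were 508 and 510 bp from the start.

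**Figure D1:**
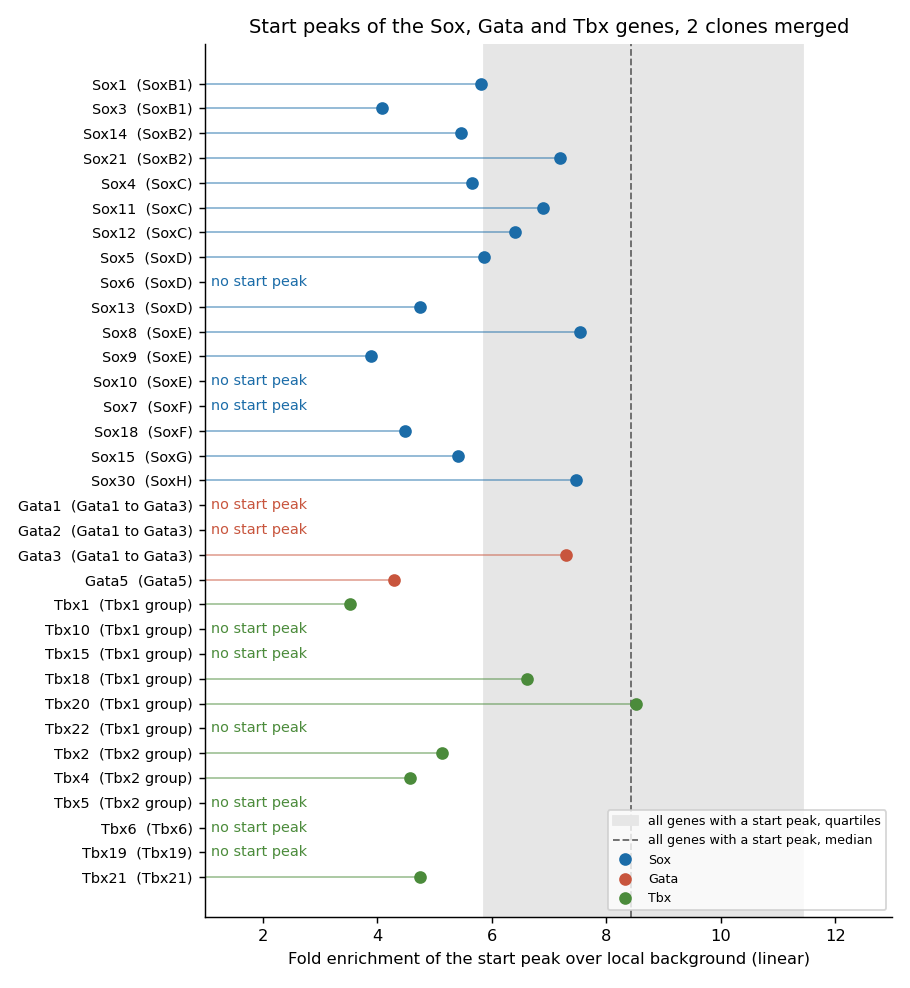
Fold enrichment of the start peak (linear scale) for each Sox, Gata and Tbx gene, grouped by sub-family, with genes without a start peak marked as such. Error bars are not drawn because the peaks were called on both clones merged. The grey band and dashed line give the quartiles and median, 5.86, 11.44 and 8.43, over all 14106 protein-coding genes with a start peak, and Tbx20 at 8.52 is the single gene to the right of that median.

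The start peaks of these genes were low and wide beside those of all protein-coding genes. The fold enrichment of the 22 start peaks had a median of 5.55 with quartiles of 4.62 and 6.83, and ranged from 3.53 to 8.52. Over all 14106 protein-coding genes with a start peak, the median was 8.43 with quartiles of 5.86 and 11.44. Of the 22 peaks, 21 lay below that median. The fragments over the summit had a median of 25.5 beside 32 for all genes, and the local background a median of 3.63 beside 2.90, so the fragment number was lower and the background higher. In bulk cells, a low peak in every cell and a higher one in a few cells cannot be told apart. In width, the 22 peaks had a median of 1432.5 bp beside 1045 bp, and 16 of 22 were wider than the median of all genes. Peaks of 2000 bp or more were found at 5 of 22 starts (22.7%) beside 2.87% of all start peaks, 6 of 37 in Fox genes (16.2%) and 0 of 23 in Hox genes. These were Sox11 (2683 bp), Sox5 (2243 bp), Tbx18 (2176 bp), Sox9 (2128 bp) and Sox3 (2009 bp).

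Low start peaks were also found in the other developmental families. The median fold enrichment was 5.86 in the 37 Fox genes and 4.58 in the 23 Hox genes with a start peak, with median widths of 1361 and 1363 bp. These are values per gene, and Hoxc5 and Hoxc10 carried the same fold enrichment, width and fragments, as did Hoxd3 and Hoxd4. A peak shared by neighbouring genes is thus counted at each of them. Within the 3 families, the median fold enrichment was 5.73 for Sox, 5.79 for Gata and 4.94 for Tbx, and the median width was 1580.5, 1154.5 and 953 bp. The wider peaks were mostly those of Sox genes, of which 12 of 14 exceeded the median of all genes in width, beside 2 of 2 Gata and 2 of 6 Tbx genes. When −log10 q had to reach 10, 12 of the 33 genes (36.4%) kept a start peak, beside 47.1% of all protein-coding genes. These were 9 Sox genes, 1 Gata gene (Gata3) and 2 Tbx genes (Tbx18 and Tbx20).

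**Figure D2:**
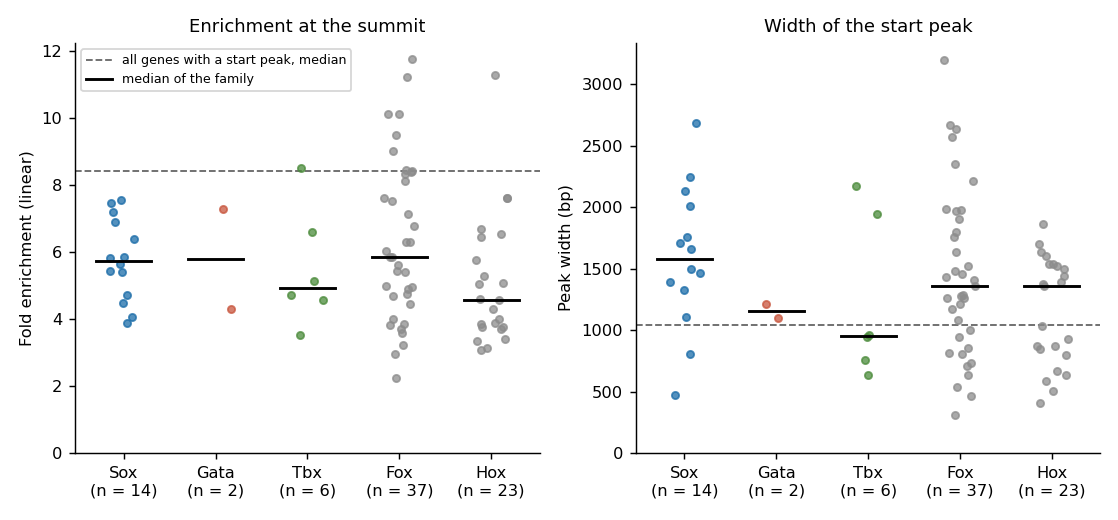
Fold enrichment (left, linear) and width in bp (right) of the start peak in each gene of 5 families of developmental transcription factors, 1 point a gene, with black bars for family medians and dashed lines for the medians over all protein-coding genes with a start peak (8.43 and 1045 bp). The Sox, Gata and Tbx points lie below the dashed line on the left apart from Tbx20, and most Sox points lie above it on the right.

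Among the Sox genes, all 7 of SoxB1, SoxB2 and SoxC had start peaks. All 7 starts are in the high CG class described below, in which 97.3% of all protein-coding genes had one. In SoxB1, whose members maintain neural progenitors, Sox1 had a start peak of fold enrichment 5.82 with 36 fragments. Its paralog Sox3, on chromosome X, was lower, with a fold enrichment of 4.08, a −log10 q-value of 5.80 and 19 fragments (95% interval 11.4 to 29.7). The Sox3 peak spans chrX:60892486-60894494 and is also the region of the start of the antisense gene Gm14662. Sox1 lies on chromosome 8, where the start peaks of all genes had a median background of 4.44 beside 2.90 over all chromosomes, and the background at Sox1 was 5.36. In SoxB2, whose members act mainly as repressors, Sox21 had a fold enrichment of 7.20, a −log10 q-value of 28.4 and 56 fragments (42.3 to 72.7) at chr14:118235958-118237353. Sox14 had 2 peaks in its window, of which the stronger had a fold enrichment of 5.46 and 30 fragments and was narrow, at 471 bp.

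The SoxC genes, which act in neuronal and mesenchymal differentiation, had peaks at all 3 starts. Fold enrichment was 6.90 at Sox11, 6.40 at Sox12 and 5.65 at Sox4, with 43, 61 and 38 fragments. The 61 fragments at Sox12 were the most of any of the 22 start peaks, but they stood over a background of 8.68, also the highest, and the summit lay 1031 bp upstream of the start. Sox12 shows how fragment number and fold enrichment part: it had more fragments than Tbx20 and a lower ratio.

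In SoxD, whose proteins lack a transactivation domain and work with SOX9 in cartilage, Sox5 had a start peak of fold enrichment 5.86 with 27 fragments. Sox13 had one of 4.74 with 10 fragments. Sox6 had none within 500 bp. The peak 508 bp away from the Sox6 start (fold enrichment 6.87, 28 fragments) has its summit 1687 bp upstream and holds the start of another gene, 1110004F10Rik.

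SoxE, the group of neural crest, glia, cartilage and testis, was divided. Sox8 had the highest start peak of all Sox genes, with a fold enrichment of 7.55, a −log10 q-value of 13.8 and 23 fragments (14.6 to 34.5) at chr17:25570483-25571287. Sox9 had one of the lowest, with a fold enrichment of 3.89, a −log10 q-value of 6.67 and 24 fragments (15.4 to 35.7) at chr11:112781117-112783244. Their fragment numbers were nearly equal, and the local background was 2.18 at Sox8 and 5.42 at Sox9. The Sox9 peak was 2128 bp wide with 2 further peaks downstream inside the gene, whereas that of Sox8 was 805 bp wide. Sox10 had no start peak, and its nearest peak was 9522 bp away and rested on 6 fragments, the smallest number among the peaks of these genes.

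In SoxF, known from endothelial development, Sox18 had a start peak of fold enrichment 4.49 with 14 fragments, and Sox7 had none. Sox15, the only SoxG gene, had a start peak of 5.41 with 19 fragments. Sox30, the SoxH gene of male germ cells, had one of 7.47 with a −log10 q-value of 16.0 and 28 fragments (18.6 to 40.5) at chr11:45979658-45981369. Its start window held 112 CG dinucleotides, the second most of the 33 genes after Sox12 with 126.

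The Gata genes had the fewest start peaks in number. Gata1, the erythroid factor on chromosome X, had no peak within its 28.8 kb region or anywhere closer than 14465 bp to its start. Gata2, of blood stem and progenitor cells, had none at its start, and its nearest peak was 3325 bp upstream (fold enrichment 8.63, 33 fragments, 22.7 to 46.3), with its edge 115 bp from the start of the long noncoding RNA gene Gm38708. Gata3, of T cells, had a start peak of fold enrichment 7.29, a −log10 q-value of 15.2 and 27 fragments (17.8 to 39.3) at chr2:9888977-9890072. This window also holds the start of the protein-coding gene 9230102O04Rik. Gata5, of heart and gut endoderm, had a start peak of 4.30 with only 10 fragments.

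Of the Tbx1 group, 3 of 6 genes had a start peak. Tbx20, a cardiac factor, had the highest of all 33 genes, with a fold enrichment of 8.52, a −log10 q-value of 29.9 and 51 fragments (38.0 to 67.1) at chr9:24773800-24774761, which exceeded 50.8% of all start peaks. Tbx18, of epicardium and ureter mesenchyme, had one of 6.61 with 54 fragments. Tbx1, of the pharyngeal arches, had the lowest of all, with a fold enrichment of 3.53, a −log10 q-value of 3.13 and 12 fragments (6.2 to 21.0) at chr16:18590187-18590825. No start peak was found at Tbx10, Tbx15 (skeletal development) or Tbx22 (palate), whose nearest peaks were 6028, 510 and 8191 bp away.

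In the Tbx2 group, Tbx2 (atrioventricular canal) and Tbx4 (hindlimb) had start peaks of fold enrichment 5.13 and 4.57 with 22 and 14 fragments. Tbx5 (forelimb and heart) had none, and its nearest peak, 6448 bp away, rested on 6 fragments. Of the remaining genes, Tbx21, which encodes the T helper cell factor T-bet, had a start peak of 4.74 with 10 fragments, wide at 1944 bp. Tbx6, of paraxial mesoderm, and Tbx19, of pituitary corticotrophs, had none, with the nearest peaks 1091 and 4509 bp from their starts. The 2 start peaks with 4.74, at Sox13 and Tbx21, carried the same fragment number and background, 10 and 1.32.

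Start peaks were found mostly at CG-rich starts, in the 33 genes as in the whole annotation. In the 1001 bp around each start, the 22 genes with a peak held 35 to 126 CG dinucleotides with a median of 75.5, and the 11 without held 5 to 88 with a median of 24. Starts were classed as low (below 20), middle (20 to 49) or high (50 or more), with limits set for this description. None of 5 genes in the low class had a peak (Gata1, Sox10, Tbx10, Tbx19 and Tbx22), beside 13.2% of all genes in that class. In the middle class, 4 of 8 genes had a peak, beside 80.6%. In the high class, 18 of 20 had one (90.0%), beside 97.3%. The middle class was divided by CG number as well, since Sox6, Tbx5, Tbx15 and Tbx6 held 24 to 29 and had no peak, and Gata3, Sox15, Tbx1 and Tbx4 held 35 to 49 and had one. Of all 1687 genes with 20 to 29 CG dinucleotides, 60.8% had a start peak.

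The exceptions in the high class were Gata2, with 88 CG dinucleotides, and Sox7, with 82. Of all 1270 genes with 80 to 89 CG dinucleotides, 98.2% had a start peak. The nearest Sox7 peak was 2472 bp upstream, with a fold enrichment of 5.79 and 18 fragments (10.7 to 28.4), and no peak lay within the Sox7 gene.

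The height of the start peaks was then read within a CG class. Within the high class, the median fold enrichment was 5.73 in the 18 genes and 9.12 in all 9174 genes with a peak. Over the 22 start peaks, CG number and fold enrichment had a Pearson correlation of 0.081 and a Spearman correlation of 0.091, and over all 14106 they were 0.171 and 0.224. The genes share a peak list and a depth, so these are descriptions.

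**Figure D3:**
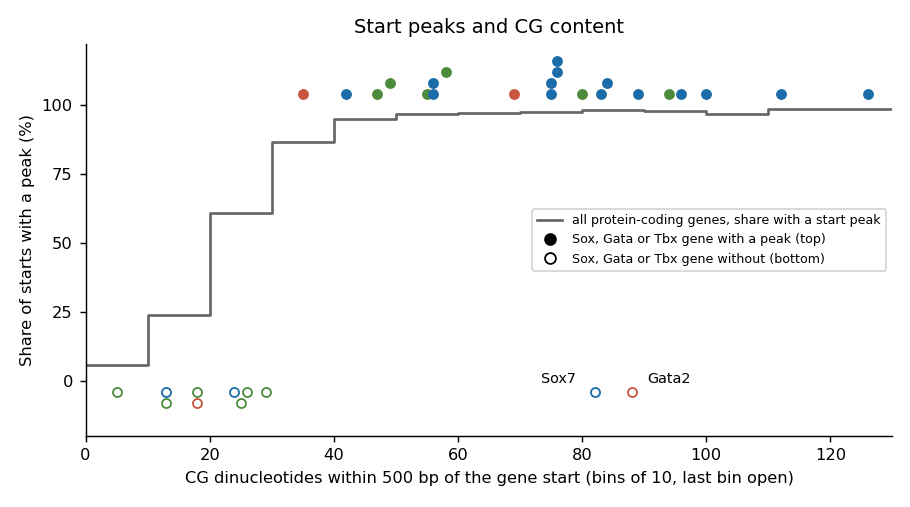
Share of all protein-coding genes with a start peak (line, percent) by the number of CG dinucleotides within 500 bp of the start, with each Sox (blue), Gata (red) and Tbx (green) gene placed above the plot when it has a start peak and below when it has none. Those of the 33 genes below 30 CG dinucleotides have none, and those above have one apart from Sox7 at 82 and Gata2 at 88.

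The counts were also read by neighbouring starts and by chromosome. In 5 genes (Gata3, Sox3, Sox8, Sox9 and Tbx2) the window also holds the start of another annotated gene, and all 5 had a peak. Over the whole annotation, 90.2% of genes with such a neighbour had a start peak and 59.2% of those without. The start windows with such a neighbour held a median of 66 CG dinucleotides and those without held 31. Without these 5, 17 of 28 genes (60.7%) had one. Of the 3 genes on chromosome X, Sox3 had a start peak and Gata1 and Tbx22, both in the low CG class, had none. Of all genes on chromosome X 51.3% had one, and on chromosomes 1 to 19 65.5%. Their start windows held a median of 23 and 43 CG dinucleotides. What neighbouring starts, chromosome and CG content each contribute was not tested.

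Several genes have further annotated starts. When the start of every transcript was used, 26 of 33 genes had a peak at 1 or more starts, beside 70.0% of all protein-coding genes, and the 4 gained were Gata2, Sox6, Tbx15 and Tbx22. In Gata2, a start 4.44 kb inside the gene had a peak of fold enrichment 5.64 with 22 fragments (13.8 to 33.3). In Sox6, a start 4.28 kb in had a peak of 4.44 with 34 fragments, and in Tbx15 a start 13.38 kb in had one of 7.34 with 37 fragments (26.1 to 51.0). In Tbx22, the peaks at later starts rested on 7 and 9 fragments. Gata1, Sox7, Sox10, Tbx5, Tbx6, Tbx10 and Tbx19 had no peak at any annotated start.

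Beyond the starts, the region from 10 kb upstream to the end of each gene was searched for all peaks. The 33 regions held 192 distinct peaks, and 32 of the 33 held at least 1, beside 84.5% of all protein-coding genes. Only Gata1 had none. Some of these peaks lie at the starts of other genes, as does the only peak of the Tbx10 region, with its summit 7 bp from the Acy3 start. The median was 3 peaks a gene beside 2 for all genes. Per 10 kb, the median was 0.83 with quartiles of 0.64 and 1.73, beside 0.63 with quartiles of 0.31 and 1.02 in all genes. The medians of the Fox and Hox genes were higher, at 0.95 and 1.48. When −log10 q had to reach 10, the order turned, with a median of 0.083 in the 33 genes and 0.145 in all genes. The densest regions were those of short Sox genes, Sox12 with 2.77 peaks per 10 kb, Sox1 with 2.697 and Sox9 with 2.57, in regions of 14.5, 14.8 and 15.5 kb. The sparsest were Gata1 with 0, Tbx19 with 0.30 and Sox10 with 0.49. Without the start peaks, which weigh more in short regions, the median fell to 0.645 in the 33 genes and 0.422 in all genes. Without peaks at other genes' starts, 170 peaks remained, and the median was 0.710 in the 33 genes and 0.511 in all genes.

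**Figure D4:**
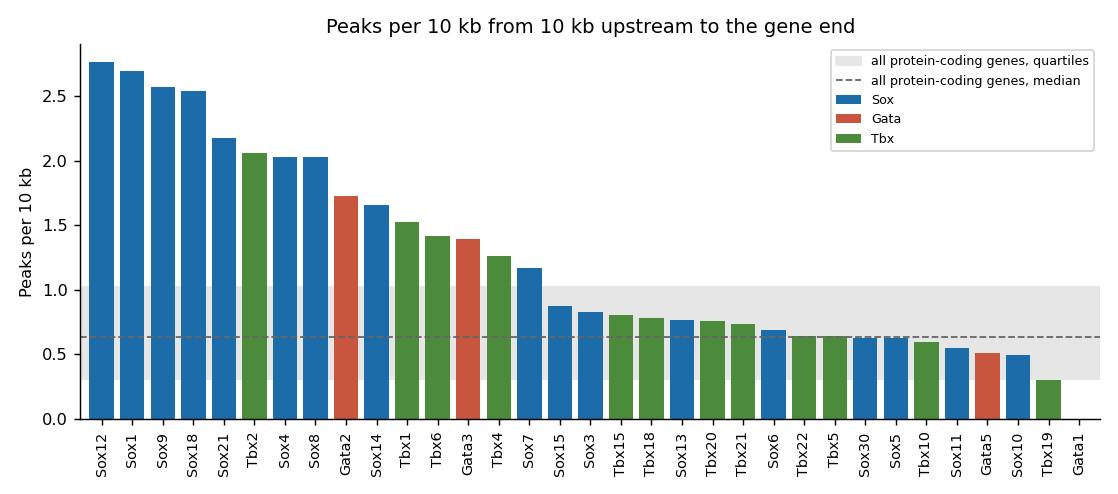
Peaks per 10 kb of the region from 10 kb upstream to the gene end for each of the 33 genes, in descending order (bars start at 0), with the median and quartiles over all protein-coding genes as dashed line and grey band. The bars run from 2.77 at Sox12 to 0 at Gata1, and the leading 5 are Sox genes.

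In several short Sox genes, peaks covered a large part of the gene body. They covered 87.6% of Sox18, a gene of 1805 bp, 45.8% of Sox3, 40.9% of Sox9, 38.7% of Sox1 and 33.9% of Sox21. The median over the 33 genes was 8.53% beside 3.84% for all protein-coding genes, 12.9% for Fox and 15.5% for Hox genes, and over the 17 Sox genes it was 25.6%. Sox5, which spans 953553 bp, was covered to 3.8%, and genes of equal length were not compared.

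By place, 123 of the 192 peaks had their summit in an intron, 28 upstream, 21 in an exon, 17 within 500 bp of the start and 3 past the edge of the region. Fewer than 10 fragments lay over the summit in 103 of the 192 (53.6%), beside 53.7% of all peaks in the list. The 2 long genes Sox5 and Sox6 carried most of these shallow peaks. In the other 31 genes, a group formed after the values were seen, 27 of 92 peaks (29.3%) had fewer than 10 fragments, the median was 15 fragments and 22 peaks reached a −log10 q-value of 10. Over all 192 peaks again, the median fold enrichment was 3.70 beside 3.98 in the whole list, and 36 peaks (18.8%) reached that −log10 q-value, beside 22.2%. Intronic peaks had a median of 7 fragments, and the 17 whose summits lay no more than 500 bp from the start had a median of 27.

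The genes with most peaks were Sox5 with 60, Sox6 with 40, Tbx15 with 10 and Gata3 with 6. Sox5 and Sox6 together held 100 of the 192 peaks, and in 46 of the 60 and 30 of the 40 the summit had fewer than 10 fragments. Per 10 kb they had 0.62 and 0.69 peaks, near the median of all genes. Among the 230 protein-coding genes of at least 500 kb, the median was 0.323 with quartiles of 0.216 and 0.517, and Sox5 and Sox6 exceeded 85.2% and 90.0% of them.

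A few distal peaks stood far above this shallow level and above every start peak of the 33 genes. The 5 highest with summits over 500 bp from any annotated gene start were in or near 3 Sox genes. In fold enrichment these 5 exceeded 95.7 to 97.5% of all peaks in the list, so such heights were not particular to these genes. The highest lay in a Sox5 intron at chr6:144370460-144371341, with a fold enrichment of 13.23, a −log10 q-value of 39.8 and 49 fragments (36.3 to 64.8). A second Sox5 peak at chr6:144361058-144362121 had a fold enrichment of 12.44, a −log10 q-value of 38.2 and likewise 49 fragments (36.3 to 64.8). Another at chr6:144250611-144251456 had 12.97, with a −log10 q-value of 33.3 and 40 fragments (28.6 to 54.5). The Sox12 peak at chr2:152406003-152406600, 8279 bp upstream of the start, had a fold enrichment of 13.16, a −log10 q-value of 50.04 and 64 fragments (49.3 to 81.7). The Sox12 start peak, at 6.40, was lower although its fragment number, 61, was nearly the same. The last was an exonic Sox30 peak at chr11:45991508-45992271 with a fold enrichment of 11.84, a −log10 q-value of 22.6 and 26 fragments (17.0 to 38.1). In Sox6, the highest peaks, 11.41 and 11.27, lay 83.7% and 75.9% in repeat-masked sequence. Reads that match several copies equally well were placed at random among them.

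The sequences at the summits of the 2 highest distal peaks are shown with CG in capitals, on the plus strand, because they have the highest fold enrichment found around these genes. The Sox5 window is chr6:144370896-144370996 and the Sox12 window chr2:152406292-152406392, both mm10.
Sox5 intron: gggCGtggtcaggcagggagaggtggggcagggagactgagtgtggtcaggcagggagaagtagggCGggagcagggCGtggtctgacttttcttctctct
Sox12 upstream: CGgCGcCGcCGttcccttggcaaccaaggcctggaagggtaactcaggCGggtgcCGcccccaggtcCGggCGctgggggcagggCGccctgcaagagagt
The Sox5 window holds 3 CG dinucleotides and the Sox12 window holds 9, the same number as the Sox30 start summit above.

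Gata3 had the peak with the most fragments of all 192. It lies in an intron 10279 bp downstream of the annotated start, at chr2:9879246-9879925, with a fold enrichment of 9.96, a −log10 q-value of 60.3 and 96 fragments (77.8 to 117). The nearest gene start was that of the protein-coding gene 4930412O13Rik, 1497 bp from the summit. The summit with 100 bp on either side, at chr2:9879655-9879855 on the plus strand of mm10, is shown because it holds a match to the core letters of CTCF, the architectural zinc finger factor, in capitals as read on this strand.
Gata3 intron: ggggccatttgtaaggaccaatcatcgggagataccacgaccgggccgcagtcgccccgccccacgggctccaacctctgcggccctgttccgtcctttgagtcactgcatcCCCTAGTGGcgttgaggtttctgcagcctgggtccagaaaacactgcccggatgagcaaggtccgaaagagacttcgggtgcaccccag
Such a match (CCACNAGGG on either strand) was found within 100 bp of the summit in 3 of the 192 peaks (1.56%) and in 1.64% of all peaks.

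**Figure D5:**
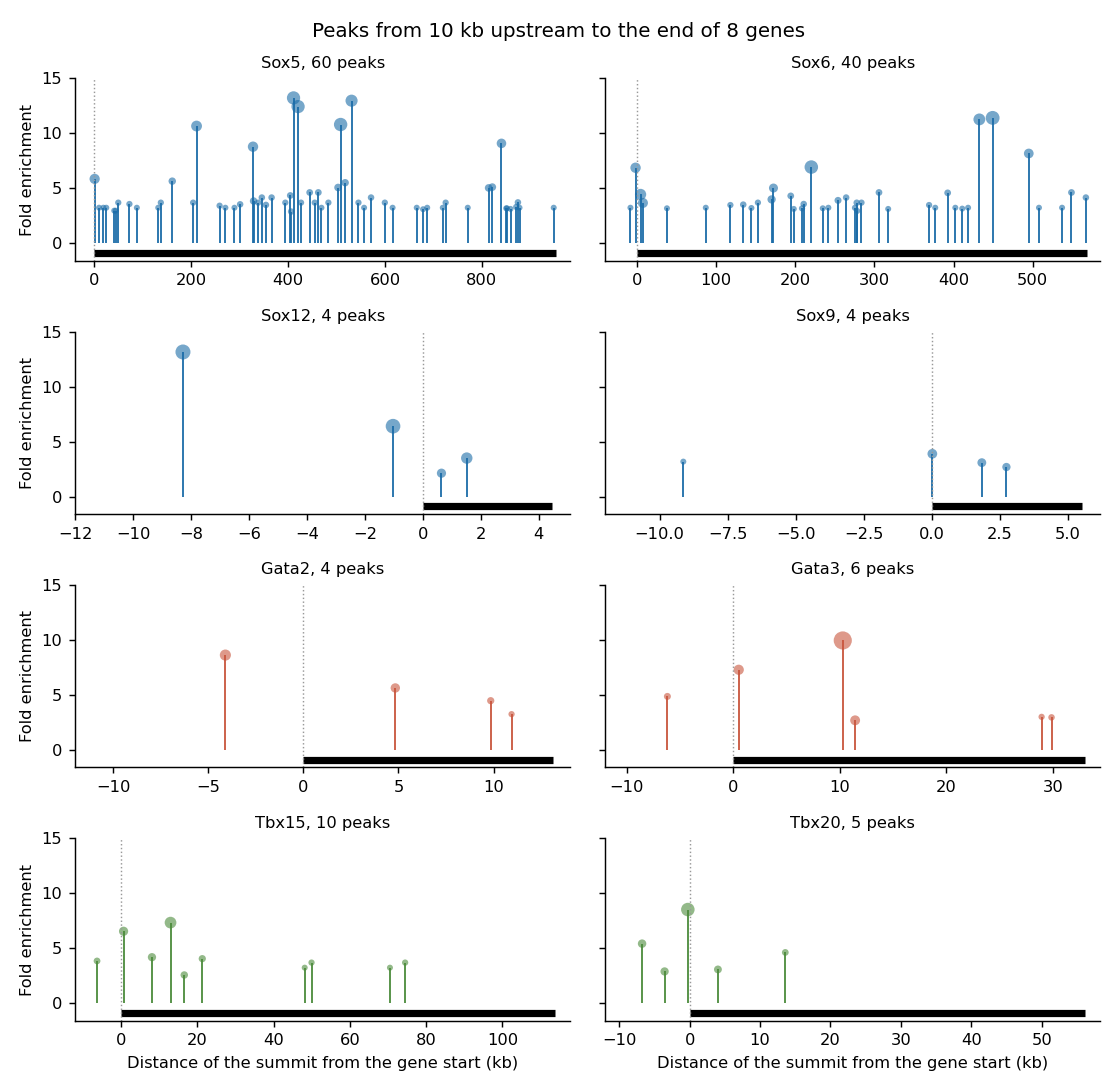
Fold enrichment (linear) of each peak against the distance of its summit from the gene start in kb for 8 genes, from 10 kb upstream to the gene end, with the gene as a black bar and marker area growing with the fragment number. Sox5 and Sox6 carry scattered low peaks with a few high ones deep in the gene, Sox12 is highest 8279 bp upstream, and the tallest Gata3 marker is its intronic peak with 96 fragments.

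Letters bound by the families themselves were counted near these summits, with exact binomial 95% intervals, beside the share of all peaks. The intervals treat each peak as a separate draw, although Sox5 and Sox6 hold 60 and 40 of the 192 peaks. They are descriptions, and no difference from all peaks was tested. Within 100 bp of the summit, on either strand, the SOX letters ACAATG or ACAAAG were found in 42 of the 192 peaks (21.9%, 16.2 to 28.4), beside 24.99% of all peaks. The GATA letters AGATAA or TGATAA were found in 30 (15.6%, 10.8 to 21.5), beside 13.1%. The T-box letters GGTGTGA were found in 5 (2.60%, 0.851 to 5.97), beside 3.03%. The octamer ATGCAAAT, read by POU factors such as the pluripotency factor OCT4, was found in 3 (1.56%, 0.323 to 4.50), beside 2.23%. Matches can share letters, as ACAATG and the octamer do in ATG, and 1 stretch may then count for both. Over 500 bp from every gene start, 1 of 165 peaks held the octamer (0.61%, 0.015 to 3.33), beside 2.39% of all such peaks. That match was in the 6-fragment Tbx15 peak at chr3:99288516-99288721.

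Genes outside the naming rule that belong to the same pathways were read as a list of 14, of which 11 had a start peak, beside 64.3% of all protein-coding genes and 97.3% of those in the high CG class. The 11 starts held 17 to 135 CG dinucleotides and the 3 without a peak 6 to 10. All 4 T-box relatives had a start peak. Among them, T, the Brachyury gene of early mesoderm, had a fold enrichment of 4.78 with 14 fragments. Eomes, of mesendoderm and trophoblast, had 6.41 with 34, Tbr1, of cortical neurons, 3.35 with 12, and Mga, which also has a helix-loop-helix domain, 9.63 with 41. The relatives with GATA-type zinc fingers included the highest start peaks. Gatad2a and Gatad2b, subunits of the NuRD repressor complex, had fold enrichments of 12.3 and 12.8 with 127 and 76 fragments, both above every start peak of the 33 genes, and Trps1 had 8.42 with 49. Gatad1 had none. Among the cofactors, the GATA partners Zfpm1 and Zfpm2 had 6.75 and 7.55, Ldb1 had 5.25 and Tal1 4.28, and Lmo2 had none. Sry, the testis-determining relative of the Sox genes on chromosome Y, had none, as did all 183 protein-coding genes of that chromosome.

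The label of the cells was read against marker genes. Of 10 mESC markers, 8 had a start peak, among them Zfp42 with a fold enrichment of 15.9 and 151 fragments, Nanog with 4.12 and 40, and Pou5f1 with 2.83 and 17, and Esrrb and Fgf4 had none. Of 10 fibroblast markers, which would mark feeder cells, 5 had one, with at most 23 fragments. Col1a2 had a fold enrichment of 7.50 and Col1a1 6.42, both above Nanog and Pou5f1, Thy1, Pdgfrb and Twist2 had 5.45, 5.33 and 4.74, and Dcn, Lum, Postn, Fbn1 and Col3a1 had none. Of 6 primitive endoderm markers 4 had one, Lama1 being the highest at 12.5 with 93 fragments, and of 6 trophectoderm markers 5 had one, none above 15 fragments. The shares of the marker sets lay on both sides of the 64.3% of all protein-coding genes. The trophectoderm share, 83.3%, was slightly above the mESC share, 80%. With 10 genes or fewer in a set, the counts of start peaks do not tell the cell types apart. The starts of the 5 fibroblast markers with a peak held 15 (Col1a2), 23 (Col1a1), 31 (Pdgfrb), 38 (Thy1) and 90 (Twist2) CG dinucleotides. The part of other cells in the values above was not tested.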

How the data were processed

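ATAC-seq was measured in 2 clones of EHMT2-dTAG mESCs under DMSO. Technical replicates were merged by the authors and trimmed with BBMap. Alignment to mm10 used STAR 2.7.10, with reads of several locations written at 1 and ties at random. Duplicates (Picard 2.26.0) and reads in High Signal Regions of ENCODE were removed, fragment ends were moved to where Tn5 had cut, and MACS2 2.2.6 called peaks on both clones merged, so replicates were pooled before deposit. SAMtools 1.14 and bedtools 2.30.0 are also named in the submitters' processing notes. The deposited fold enrichment is the ratio of summit pileup to local background, each plus 1. Significance was deposited as −log10 of the p-value and q-value at the summit, and the lowest −log10 q-value was 1.30. The deposited score repeats −log10 p, multiplied by 10 and truncated, and was left aside. Deposited summit offsets were used as positions, counting from 1.

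Fragments over a summit, the depth behind each value, were solved from fold enrichment and p-value with the MACS2 formulas and were whole (within 0.001 in −log10 p) for 116778 of 116782 peaks and all 192 reported. Library totals and signal tracks were not analysed here. Genes were those of GENCODE (release M21) and sequences came from the GRCm38.p6 RefSeq assembly, the same build as mm10. Motifs were searched within 100 bp of summits. The calculation was tested on simulated data. Python 3.11.15, NumPy 2.4.6, pandas 2.3.3, SciPy 1.17.1, pysam 0.24.0 and matplotlib 3.10.9 were used. Intervals of shares are exact Clopper-Pearson.

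The genes, lists and alternatives were chosen with earlier results of these data known. Every gene was named, with full values for the 5 highest and 3 lowest start peaks, the genes with most and fewest peaks, and the 5 highest distal peaks. Other genes' values follow their families, and the choice of the Gata2, Sox7, Tbx22 and Gata3 sequences was made after values were seen. Alternatives were other windows, starts, thresholds and region limits.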

Additional observations from a re-analysis of the deposited data

How the results depend on the processing

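Of 36 alternatives over 6 results, 30 stayed near the value given and 6 moved, where near means within 1.5 times for a count, and within the 95% interval of the median (by ranks) or of the share (binomial) for the others. Requiring −log10 q to reach 10 left 12 genes with a start peak, 36 peaks in the 33 regions and a median of 0.083 peaks per 10 kb, now below the 0.145 of all genes. The octamer share was then 5.56% of 36 peaks (2 peaks), above the 2.46% of all peaks and so in the reverse order. Leaving out the start peaks of the genes lowered the median per 10 kb to 0.645. A window of 50 bp around the summit gave an octamer share of 0%, beside 1.16% of all peaks. Windows of 1000 and 2000 bp gave 24 and 25 genes with a start peak (72.7% and 75.8%, beside 66.4% and 69.9% of all genes). Summits inside the 500 bp window gave 17 (51.5% beside 57.4%), which turns the order against all genes. The median fold enrichment of the start peaks ran from 5.55 to 6.75 over the 7 alternatives tried for it and that of all genes from 7.98 to 9.88, the former being the lower in each. No paired analysis was possible because the deposited list merges the clones, and leaving out a clone was not possible for the same reason. Depth limits the shallow peaks most, since 103 of 192 rest on fewer than 10 fragments.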
